A study of Mus musculus with 9 samples.

Results

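The genes described here are 29 enzymes and regulators of cholesterol and fatty acid synthesis, read in the large intestine of mice with 2 different missense mutations of the mucin gene *Muc2*. They were taken by name, each from its brightest array probe set annotated to that gene alone. A probe set was found for 28 of the 29, out of 18161 genes with a probe set of their own, and all 28 were among the 11446 genes whose signal was high enough to be tested. The member without one is *Acat2*.

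Affymetrix arrays were hybridised with RNA from 3 *Eeyore*, 3 *Winnie* and 3 wild-type mice at 8 wk of age, 1 array per mouse, to find which transcripts differ in the mutant intestine. RNA of the proximal and the distal large intestine of each mouse was mixed in equal amounts. *Eeyore* mice carry a serine to proline change near the C-terminus of Muc2, on a mixed C57BL/6 and NOD-SCID background, and *Winnie* mice a cysteine to tyrosine change in an N-terminal domain, on C57BL/6. Both mutations arose by chemical mutagenesis with *N*-ethyl-*N*-nitrosourea in C57BL/6 founders, and wild-type mice were C57BL/6 without a *Muc2* mutation. In *Eeyore* mice the allele and the mixed background cannot be told apart. All 9 mice are labelled male, but *Xist*, which is made from the inactive X chromosome of female cells, had signals of 65.7 to 107 in *Eeyore* and 9.13 to 61.8 in *Winnie* mice, against 7371 to 8261 in wild-type mice. Y-linked *Kdm5d* gave 560.1 to 665 in *Eeyore* and 519 to 667 in *Winnie* mice, against 47.5 to 64.6 in wild-type mice. *Muc2* RNA, which a missense change need not remove and which therefore checks no label, gave 32542 to 36854 in *Eeyore* and 25759 to 35694 in *Winnie* mice, against 70046 to 85946 in wild-type mice. By the sex-linked transcripts, sex and the *Muc2* allele cannot be told apart in any comparison with wild-type mice. Both mutant strains gave the same pattern of these sex-linked transcripts, so this limit does not touch the direct comparison of *Eeyore* with *Winnie*.

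Cells build cholesterol from acetyl-CoA through mevalonate, farnesyl diphosphate and squalene, and then through a chain of sterol intermediates in the endoplasmic reticulum. Fatty acids are built from the same acetyl-CoA by acetyl-CoA carboxylase and fatty acid synthase, and are then elongated and desaturated. Genes of both routes are controlled by the sterol regulatory element-binding proteins, which Scap carries to the Golgi for cleavage when sterols are low and which Insig proteins hold back when sterols are high. The gut epithelium renews itself quickly and is known as an active site of sterol synthesis.

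Genes of cholesterol synthesis rose in both mutant strains, more of them in *Eeyore* mice. Of 6 genes of fatty acid synthesis 1 was called higher in each strain, near the share of all tested genes, and 5 in neither direction. In *Eeyore* mice 16 of the 28 measured genes rose against wild-type, none fell and 12 did not pass the test. The share of all tested genes called higher in that comparison was 14.0%, and the share called lower was 16.6%. In *Winnie* mice 10 of 28 rose (11.3% of all tested genes did), 1 fell (12.0% of all tested genes did) and 17 did not pass. A gene is called here when its adjusted p from limma, corrected over the 22519 tested probe sets, is under 0.05. Of the 17 enzymes on the route through mevalonate to cholesterol 14 rose in *Eeyore* and 9 in *Winnie* mice, and none fell. All mice of a strain lay above all wild-type mice in 20 of the 28 genes in *Eeyore* (20.8% of all tested genes did) and in 12 in *Winnie* mice (19.7% of all tested genes did). They lay below them in 1 gene in *Eeyore* and 3 in *Winnie* mice, against 25.3% and 24.3% of all tested genes. Over those 17 genes the median log2 fold change was 0.74 in *Eeyore* and 0.39 in *Winnie* mice, while over all tested genes it was -0.04 and -0.05. Among the 6 genes of fatty acid synthesis 1 gene, *Scd2*, rose in each strain (14.0% and 11.3% of all tested genes did). None of the 6 fell (16.6% and 12.0% of all tested genes did), and the medians were -0.05 and -0.29.

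**Figure D1:**
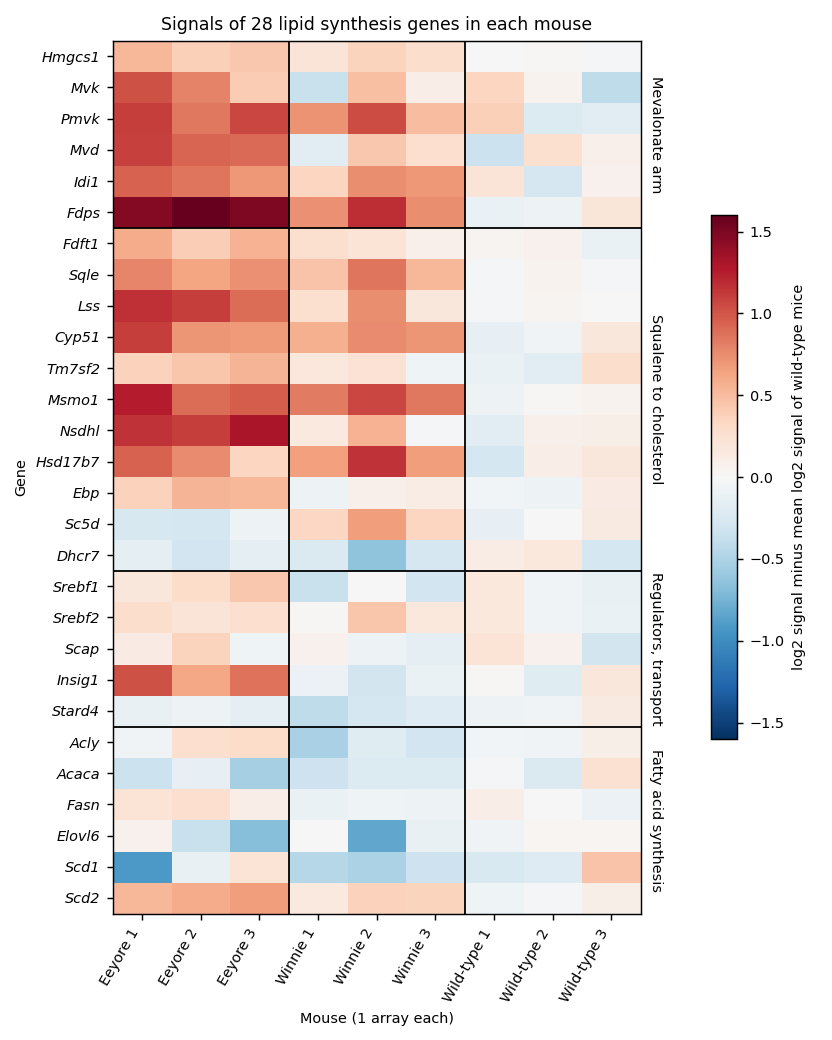
Each cell is the log2 signal of 1 gene (rows, grouped by role) in 1 mouse (columns, *Eeyore*, *Winnie* and wild-type), minus the mean log2 signal of the wild-type mice. Red cells run through the mevalonate and squalene-to-cholesterol blocks in all *Eeyore* mice, more weakly in *Winnie* mice, while *Sc5d* is red in *Winnie* mice only and *Dhcr7* and most fatty acid genes do not share the pattern.

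Promoter windows from 250 bases before to 50 after the annotated start were given for 23 of the 29 genes (RefSeq, build GRCm38.p6). The letters CCAAT, the core bound by the factor NF-Y, were found on either strand in 19 of these 23 genes (82.6%), against 41.1% of all 27025 genes with a window and 42.4% of the 9281 tested genes with one. The letters TCACNCCAC, a form of the sterol regulatory element, were found on either strand in 1 of the 23 (4.35%), *Hmgcs1*, against 1.44% of all genes with a window. The 2 motifs do not overlap in that window. These are counts of letters, not of binding, and a gene with several annotated starts had several windows. *Mvk* held 5 CCAAT boxes, *Hmgcs1* and *Nsdhl* 4 each, *Msmo1* 3 and *Insig1* 1, while *Acaca*, *Elovl6*, *Scap* and *Acat2* held none in their windows. The windows of 4 genes described below are printed, and no result below rests on the letters in them. *Hmgcs1* holds both motifs, *Msmo1* rose in both strains, and *Nsdhl* and *Insig1* differed between the strains. They lie at chr13:119690101-119690400 (plus strand), chr8:64733529-64733828 (minus strand), chrX:72918271-72918570 (plus strand) and chr5:28071162-28071461 (plus strand). Capitals mark CCAAT, its reverse complement ATTGG and, in *Hmgcs1*, the sterol element.
Hmgcs1: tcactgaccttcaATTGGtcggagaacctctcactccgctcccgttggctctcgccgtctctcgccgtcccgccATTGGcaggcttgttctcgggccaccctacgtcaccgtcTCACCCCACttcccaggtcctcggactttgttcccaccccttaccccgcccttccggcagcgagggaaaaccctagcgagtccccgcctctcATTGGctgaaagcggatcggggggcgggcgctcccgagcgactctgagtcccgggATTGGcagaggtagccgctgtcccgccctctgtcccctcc
Msmo1: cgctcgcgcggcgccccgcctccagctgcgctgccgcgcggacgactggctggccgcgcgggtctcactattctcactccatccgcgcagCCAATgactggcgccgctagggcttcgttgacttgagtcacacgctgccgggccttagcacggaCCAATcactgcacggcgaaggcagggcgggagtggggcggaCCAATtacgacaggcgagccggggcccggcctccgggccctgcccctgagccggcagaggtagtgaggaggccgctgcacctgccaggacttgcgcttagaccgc
Nsdhl: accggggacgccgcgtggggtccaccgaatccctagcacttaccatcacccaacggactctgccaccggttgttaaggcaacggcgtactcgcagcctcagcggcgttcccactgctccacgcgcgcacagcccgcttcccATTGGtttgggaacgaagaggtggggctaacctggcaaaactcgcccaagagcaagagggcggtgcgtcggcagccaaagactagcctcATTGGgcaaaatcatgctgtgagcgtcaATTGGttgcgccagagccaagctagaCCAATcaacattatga
Insig1: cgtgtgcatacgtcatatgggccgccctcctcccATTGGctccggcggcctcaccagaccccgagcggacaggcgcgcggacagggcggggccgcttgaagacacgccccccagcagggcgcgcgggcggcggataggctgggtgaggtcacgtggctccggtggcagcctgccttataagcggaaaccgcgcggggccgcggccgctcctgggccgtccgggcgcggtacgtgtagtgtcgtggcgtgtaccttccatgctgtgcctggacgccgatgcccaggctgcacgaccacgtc

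In the mevalonate arm all 6 measured enzymes rose in *Eeyore* mice (median log2 fold change 0.90) and 4 of 6 in *Winnie* mice (median 0.44). Of all tested genes 14.0% rose in *Eeyore* and 11.3% in *Winnie* mice. *Fdps*, which makes farnesyl diphosphate, the last intermediate shared by sterols and prenylated proteins, had signals of 6745, 7477 and 6859 in the 3 *Eeyore* mice, 4069.7, 5559 and 4081 in *Winnie* mice, and 2271, 2304 and 2781 in wild-type mice. No value of one group fell within the range of another, and the order was *Eeyore* over *Winnie* over wild-type. Its mean was 7027 ± 394 in *Eeyore*, 4570.1 ± 857 in *Winnie* and 2452 ± 285 in wild-type mice (SD, n = 3 mice each), and its log2 fold change against wild-type was 1.52 ± 0.13 (SE, adjusted p = 1.89e-05) in *Eeyore* and 0.89 ± 0.13 (adjusted p = 0.00105) in *Winnie* mice. Averaged with its dimmer second probe set, which was not tested on its own, *Fdps* gave 0.83 and 0.06 and passed in neither strain (adjusted p = 0.0815 and 0.916).

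*Hmgcs1*, the cytosolic synthase that makes the precursor of mevalonate, gave 23678, 21416 and 22139.6 in *Eeyore*, 18916, 20976 and 19928 in *Winnie*, and 16484, 16689 and 16127 in wild-type mice. *Idi1*, which interconverts the isoprene building blocks, gave 6083, 5739 and 5148 in *Eeyore*, 4029.6, 5304 and 5127 in *Winnie*, and 3655, 2629.9 and 3326 in wild-type mice. *Pmvk*, the phosphomevalonate kinase, gave 1037, 862 and 1015 in *Eeyore*, 792, 998 and 677 in *Winnie*, and 628, 416 and 429 in wild-type mice. In each of these 3 genes every mutant mouse of either strain lay above every wild-type mouse. The log2 fold changes of *Hmgcs1*, *Idi1* and *Pmvk* were 0.45, 0.83 and 1.01 in *Eeyore* mice (adjusted p = 0.00106, 0.00131 and 0.00293) and 0.28, 0.59 and 0.75 in *Winnie* mice (adjusted p = 0.019, 0.0119 and 0.0182).

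*Mvk* and *Mvd*, the mevalonate kinase and the decarboxylase of this arm, were called on their brightest probe sets in *Eeyore* mice only, and the difference between the strains did not pass the test for either (adjusted p = 0.24 and 0.0616). *Mvd* gave 977.5, 872 and 860.2 in *Eeyore*, 409, 619.5 and 553 in *Winnie*, and 362, 547 and 487 in wild-type mice, so that *Eeyore* lay apart and *Winnie* overlapped with wild-type. Its log2 fold change was 0.97 ± 0.20 in *Eeyore* (adjusted p = 0.0037) and 0.18 ± 0.20 in *Winnie* mice (adjusted p = 0.551). *Mvk* gave 742, 638 and 488 in *Eeyore*, 286.5, 511 and 394 in *Winnie*, and 467, 382 and 278 in wild-type mice, and its changes were 0.74 ± 0.26 in *Eeyore* (adjusted p = 0.0484) and 0.07 ± 0.26 in *Winnie* mice (adjusted p = 0.867) on the log2 scale. The *Eeyore* call of *Mvk* was lost in 8 of 20 alternative settings, among them those without *Eeyore* mouse 1 or 2, *Winnie* mouse 3 or wild-type mouse 2 or 3 (adjusted p from 0.0652 to 0.19 over the 8). A second, dimmer probe set of *Mvk* rose in both strains, by 1.35 in *Eeyore* and 1.28 in *Winnie* mice (adjusted p = 0.00364 and 0.00693).

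Of the 11 enzymes from squalene to cholesterol 8 rose in *Eeyore* (median log2 fold change 0.68) and 5 in *Winnie* mice (median 0.39). Over all tested genes the shares that rose were 14.0% in *Eeyore* and 11.3% in *Winnie* mice. *Msmo1*, which removes methyl groups from the sterol ring, had signals of 12789, 9966 and 10536 in *Eeyore*, 9529, 11246 and 9624.5 in *Winnie*, and 5081, 5463 and 5592 in wild-type mice. The strains overlapped with each other and stood apart from wild-type, with fitted fold changes of 2.05 in *Eeyore* and 1.88 in *Winnie* mice (log2 1.04 ± 0.11 and 0.91 ± 0.11, adjusted p = 6.85e-05 and 0.0003). *Sqle*, squalene epoxidase and a rate-limiting step of the pathway, gave 5838, 5249.6 and 5626 in *Eeyore*, 4639, 6152 and 4906 in *Winnie*, and 3321, 3518 and 3320.3 in wild-type mice. *Cyp51*, the lanosterol demethylase, gave 5205, 3939 and 3882 in *Eeyore*, 3594, 4084.5 and 3951 in *Winnie*, and 2206.5, 2331 and 2736.5 in wild-type mice. Both genes showed the same order as *Msmo1*, a separate wild-type range and mutant ranges that overlapped. Their log2 fold changes were 0.72 and 0.83 in *Eeyore* (adjusted p = 0.000791 and 0.000865) and 0.62 and 0.68 in *Winnie* mice (adjusted p = 0.00296 and 0.00422). *Hsd17b7*, a keto-reductase of the same demethylation steps, gave 1181, 1037 and 775 in *Eeyore*, 965, 1370.3 and 971 in *Winnie*, and 503, 657 and 696 in wild-type mice, and rose by 0.68 (adjusted p = 0.0246) and 0.83 (adjusted p = 0.0132).

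*Nsdhl*, *Lss*, *Fdft1* and *Ebp* were called in *Eeyore* and not in *Winnie* mice. *Nsdhl*, the X-linked sterol dehydrogenase that acts next to *Msmo1*, gave 3689, 3544 and 4089 in *Eeyore*, 1839, 2424 and 1629.5 in *Winnie*, and 1455, 1750.2 and 1760.5 in wild-type mice. The 3 *Eeyore* values lay above all others, whereas *Winnie* and wild-type overlapped, and the log2 fold changes were 1.19 ± 0.15 (adjusted p = 0.000206) and 0.23 ± 0.15 (adjusted p = 0.284). *Lss*, lanosterol synthase, gave 1277, 1225 and 1055 in *Eeyore*, 679, 952 and 647 in *Winnie*, and 557.5, 585 and 567 in wild-type mice, and rose by 1.05 ± 0.16 in *Eeyore* mice (adjusted p = 0.000798), with 0.39 ± 0.16 in *Winnie* mice (adjusted p = 0.107). Every *Winnie* value of *Lss* was nonetheless above every wild-type value. *Fdft1*, squalene synthase, gave 7599.9, 6659 and 7419 in *Eeyore*, 6026, 5862 and 5342 in *Winnie*, and 5197, 5304 and 4672.5 in wild-type mice, and changed by 0.51 in *Eeyore* (adjusted p = 0.00212), with 0.18 in *Winnie* mice (adjusted p = 0.184). *Ebp*, the X-linked sterol isomerase, gave 3823, 4286 and 4256 in *Eeyore*, 2795, 3113 and 3209.7 in *Winnie*, and 2855, 2787 and 3231 in wild-type mice, with 0.48 (adjusted p = 0.00528) and 0.04 (adjusted p = 0.817). A call in one strain alone does not show that the strains differ, and the direct comparison is given further on.

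No change was called in *Eeyore* mice for 3 sterol enzymes, the pathway's last steps among them. *Sc5d*, the lathosterol oxidase that makes the substrate of *Dhcr7*, gave 1929, 1892 and 2179.8 in *Eeyore*, 2889, 3655 and 2916 in *Winnie*, and 2093, 2278 and 2543.5 in wild-type mice. Its log2 fold change was -0.20 ± 0.13 against wild-type in *Eeyore* mice, which did not pass (adjusted p = 0.246), and 0.45 ± 0.13 in *Winnie* mice, which did (adjusted p = 0.0255). *Dhcr7*, the reductase that completes cholesterol, ranged from 2265 to 2530.3 in *Eeyore*, 1806 to 2389 in *Winnie* and 2314 to 3152 in wild-type mice, with -0.21 (adjusted p = 0.313) and -0.38 (adjusted p = 0.0825). In *Winnie* mice *Dhcr7* was called lower in 3 of 20 alternative settings, at -0.56 to -0.46 (adjusted p from 0.01 to 0.0465). With median centring it was at 0.03 there (adjusted p = 0.894). Centred on epithelial markers it was called lower in *Eeyore* mice too (-0.48, adjusted p = 0.0133). *Tm7sf2*, a sterol reductase, ranged from 619 to 698.5 in *Eeyore*, 456 to 565 in *Winnie* and 426 to 581 in wild-type mice. Its log2 fold changes of 0.45 and 0.11 did not pass (adjusted p = 0.0609 and 0.668), although all *Eeyore* values lay above the wild-type ones.

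**Figure D2:**
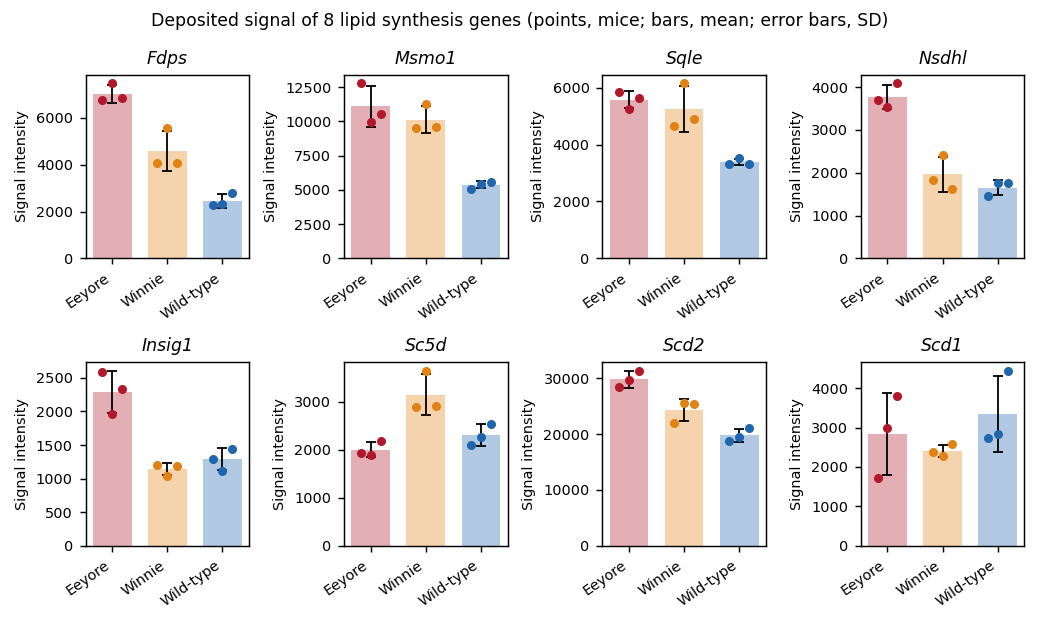
Points are the deposited linear signal of single mice, bars the mean and error bars the SD (n = 3 mice each), for 8 genes in *Eeyore*, *Winnie* and wild-type mice, with axes from 0. *Fdps* steps down across the 3 groups, *Msmo1* and *Sqle* overlap between the mutants, *Nsdhl* and *Insig1* are high in *Eeyore* mice only, *Sc5d* is high in *Winnie* mice, and the wide *Scd1* values of *Eeyore* mice overlap with both other groups.

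Of the 5 genes of regulation and sterol transport 1 rose in *Eeyore* (14.0% of all tested genes did) and 1 fell in *Winnie* mice (12.0% of all tested genes did). For so few genes these counts lie near those shares. *Insig1*, which retains Scap in the endoplasmic reticulum and is itself a target of the sterol regulatory proteins, gave 2585, 1958 and 2338 in *Eeyore*, 1203, 1046 and 1191 in *Winnie*, and 1294, 1119 and 1448 in wild-type mice. All *Eeyore* values lay above all others, and the log2 fold change was 0.83 ± 0.14 in *Eeyore* (fold 1.78, adjusted p = 0.00131) and -0.16 ± 0.14 in *Winnie* mice (adjusted p = 0.443). *Srebf2*, which encodes the factor for cholesterol genes, ranged from 1475 to 1555 in *Eeyore*, 1296 to 1737 in *Winnie* and 1185.5 to 1441 in wild-type mice, with 0.25 and 0.21 (adjusted p = 0.183 and 0.293). *Srebf1*, which encodes the factor best known for fatty acid genes, ranged from 2042.5 to 2424 in *Eeyore*, 1405 to 1799.7 in *Winnie* and 1655 to 2032 in wild-type mice, with 0.30 and -0.22 (adjusted p = 0.111 and 0.251). *Scap* ranged from 1173 to 1576 in *Eeyore*, 1096 to 1286 in *Winnie* and 1000.4 to 1429 in wild-type mice, and passed in neither strain (adjusted p = 0.532 and 0.831). With each array centred on its median signal, *Srebf2* was called higher in *Eeyore* and *Winnie* mice (0.58 and 0.62, adjusted p = 0.00904 and 0.00605). So were *Srebf1* and *Scap* in *Eeyore* mice (0.63 and 0.47, adjusted p = 0.00441 and 0.0368). That scaling called 32.4% of all tested genes higher in *Eeyore* and 37.1% in *Winnie* mice. The activity of these regulators depends on cleavage and transport of the proteins, which an RNA signal does not measure.

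*Stard4*, which carries cholesterol between membranes, gave 5134, 5264 and 5069 in *Eeyore*, 4197, 4589 and 4856 in *Winnie*, and 5264.5, 5376 and 6143.5 in wild-type mice. It was the single member called lower, by 0.30 on the log2 scale in *Winnie* mice (log2 fold change -0.30 ± 0.10, adjusted p = 0.0434), and the call was not stable. It was lost in 12 of 20 alternative settings, among them the 8 that left out *Eeyore* mouse 1 or 2 or any 1 *Winnie* or wild-type mouse (adjusted p from 0.05 to 0.14), and with each array centred on its median signal the value was 0.11 (adjusted p = 0.485). Another probe set of *Stard4* gave 0.38 in *Eeyore* (adjusted p = 0.0426) and 0.01 in *Winnie* mice (adjusted p = 0.981), so that its probe sets differed in direction.

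Among the fatty acid genes *Scd2*, a stearoyl-CoA desaturase, rose in both strains. Its signals were 28443, 29712 and 31413 in *Eeyore*, 21974, 25537.5 and 25354 in *Winnie*, and 18807.5, 19459 and 21084 in wild-type mice, in the order *Eeyore*, *Winnie*, wild-type with no overlap. The log2 fold change was 0.59 ± 0.08 in *Eeyore* (adjusted p = 0.000411) and 0.29 ± 0.08 in *Winnie* mice (adjusted p = 0.0255). Its 2 dimmer probe sets gave 1.10 and 1.30 in *Eeyore* (adjusted p = 0.000533 and 0.00267) and 0.50 and 0.40 in *Winnie* mice (adjusted p = 0.0445 and 0.273). *Scd1*, its close relative, ranged from 1722 to 3790.3 in *Eeyore*, 2281 to 2575 in *Winnie* and 2742 to 4446 in wild-type mice, with -0.27 and -0.43 (adjusted p = 0.442 and 0.239). The difference between *Scd1* and *Scd2* was not itself tested.

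*Acly*, the citrate lyase that supplies cytosolic acetyl-CoA, gave 5739.9, 7178 and 7276 in *Eeyore*, 4165, 5219 and 4811 in *Winnie*, and 5785, 5741 and 6374 in wild-type mice. All *Winnie* values lay below all wild-type values, at -0.34 ± 0.12 (adjusted p = 0.0584), and *Eeyore* overlapped with wild-type at 0.17 ± 0.12 (adjusted p = 0.307). In *Winnie* mice *Acly* was called lower in 7 of 20 alternative settings, quantile normalization among them (adjusted p from 0.0137 to 0.0487). With median centring it was at 0.07 there (adjusted p = 0.715). *Acaca*, acetyl-CoA carboxylase, ranged from 516.5 to 681 in *Eeyore*, 595 to 641 in *Winnie* and 636 to 883 in wild-type mice, at -0.33 and -0.26 (adjusted p = 0.147 and 0.29). *Fasn*, fatty acid synthase, ranged from 2433 to 2707 in *Eeyore*, 2095 to 2141 in *Winnie* and 2105 to 2431 in wild-type mice, at 0.20 and -0.09 (adjusted p = 0.164 and 0.581). *Elovl6*, an elongase of saturated fatty acids, ranged from 1327 to 2239.5 in *Eeyore*, 1200.3 to 2138.5 in *Winnie* and 2056 to 2176 in wild-type mice, at -0.32 in both (adjusted p = 0.287 and 0.325). No direction can be given for *Fasn*, since with median centring it was called higher in both strains, at 0.52 in *Eeyore* and 0.32 in *Winnie* mice (adjusted p = 0.00318 and 0.0379).

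**Figure D3:**
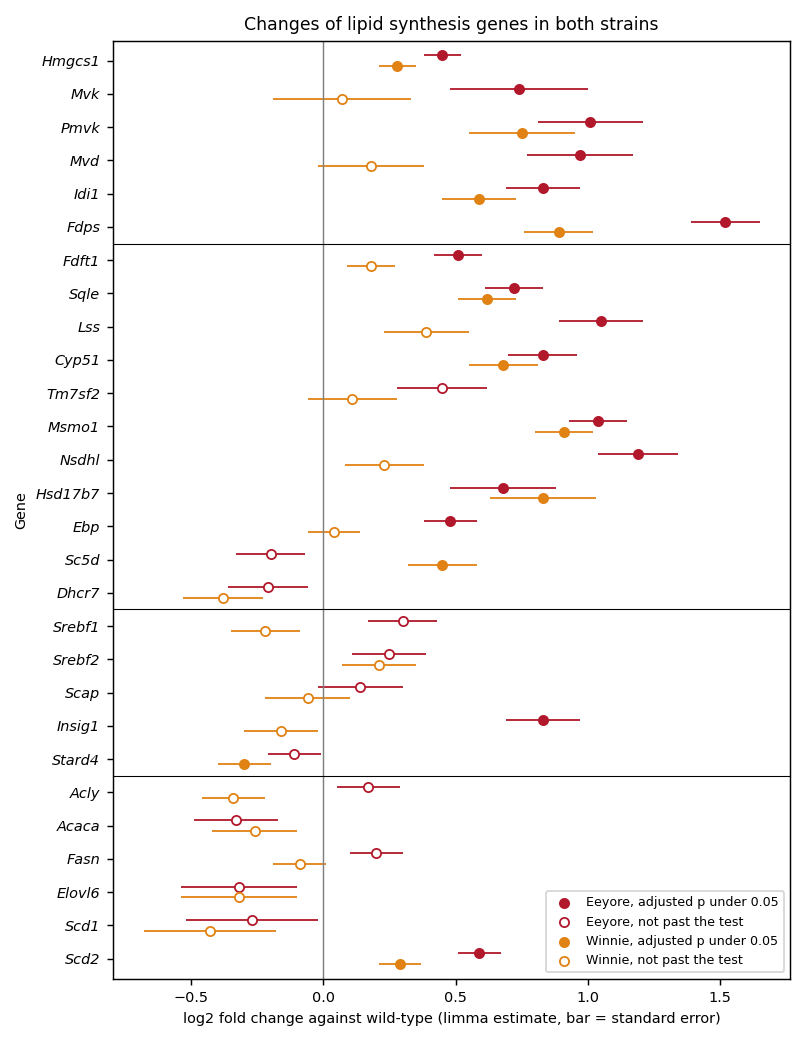
Points are limma log2 fold changes against wild-type with standard errors (bars), for *Eeyore* (red, upper) and *Winnie* (orange, lower) in each of 28 genes, filled where the adjusted p is under 0.05. In the first 2 blocks, the route to cholesterol, the *Eeyore* point lies right of the *Winnie* point in 15 of 17 genes, *Hsd17b7* and *Sc5d* being the exceptions.

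In the direct comparison of the strains 5 of the 28 genes differed, 4 of them higher in *Eeyore* (1.29% of all tested genes were) and 1 lower (1.3% of all tested genes were). *Insig1* was higher in *Eeyore* by 0.99 ± 0.14 (fold 1.99, adjusted p = 0.00241), *Nsdhl* by 0.96 ± 0.15 (fold 1.94, adjusted p = 0.00389), *Fdps* by 0.64 ± 0.13 (adjusted p = 0.027) and *Acly* by 0.51 ± 0.12 (adjusted p = 0.045). *Sc5d* was lower in *Eeyore* than in *Winnie* mice, at -0.65 ± 0.13 (adjusted p = 0.0172). In all 5 the ranges of the strains did not overlap on the brightest probe set. A dimmer probe set of *Sc5d* went the other way, at 0.37 (adjusted p = 0.36), with all *Eeyore* values above all *Winnie* values. Against wild-type that probe set gave -0.43 in *Winnie* mice (adjusted p = 0.11). The dimmest *Sc5d* probe set gave -0.42 between the strains (adjusted p = 0.814). Over the 28 genes all 3 *Eeyore* values were above all 3 *Winnie* values in 14 (10.2% of all tested genes were), and below them in 1 (10.7% were). The calls of *Insig1* and *Nsdhl* were kept in all 20 alternative settings, and that of *Acly* was lost in 13, 7 of which left out a mouse (adjusted p from 0.0532 to 0.178 without *Eeyore* mouse 2 or 3, *Winnie* mouse 1 or 3 or any 1 wild-type mouse). The call of *Fdps* was lost without *Eeyore* mouse 2 or 3 or *Winnie* mouse 1 or 3 and in 4 other settings (adjusted p from 0.0629 to 0.288), and that of *Sc5d* without *Eeyore* mouse 2 and in 2 others (adjusted p from 0.0812 to 0.745). *Ebp* missed the threshold narrowly, at 0.44 ± 0.10 (adjusted p = 0.0501). For *Sqle*, *Cyp51* and *Msmo1* the differences were 0.10, 0.15 and 0.13, with 95% intervals of -0.14 to 0.34, -0.13 to 0.44 and -0.11 to 0.36, which still allow *Eeyore* to be higher by up to these upper bounds.

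Within a strain the mice did not move alike in the member genes. How often each mouse was highest over all tested genes was not counted. Over the 17 genes on the route to cholesterol, *Winnie* mouse 2 had the highest signal of its group in 14, and its median difference from the wild-type mean was 0.67, against 0.26 and 0.28 in the other *Winnie* mice. Without that mouse 5 rather than 10 of the 28 genes were called higher in *Winnie* mice. The share of all tested genes was not counted in fits without a mouse, which also leave fewer arrays for every gene. *Eeyore* mouse 1 was the highest of its group in 12 of 17, with medians of 0.95, 0.76 and 0.69 in the 3 *Eeyore* mice. The count for *Winnie* also rested on single wild-type mice, at 6 without wild-type mouse 1 and 5 without wild-type mouse 2, whereas the *Eeyore* count stayed between 14 and 16 with any 1 mouse left out. By gene, *Winnie* calls were lost without *Winnie* mouse 2 or 3 or wild-type mouse 1 or 2 for *Hmgcs1* (adjusted p from 0.0531 to 0.0633) and *Scd2* (0.0823 to 0.0923), and without *Winnie* mouse 2 or wild-type mouse 2 or 3 for *Pmvk* (0.0581 to 0.0757). They were lost without *Winnie* mouse 2 or wild-type mouse 1 or 2 for *Sc5d* (0.0767 to 0.0968), without *Winnie* mouse 2 or wild-type mouse 1 for *Hsd17b7* (0.0543 to 0.0576) and without wild-type mouse 2 for *Idi1* (0.0546). In *Eeyore* mice the call of *Hsd17b7* was lost without *Eeyore* mouse 1 or 2 or wild-type mouse 1 or 2 (adjusted p from 0.05 to 0.0946).

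The members had 64 probe sets, of which 54 were tested, and 26 of these were not the brightest of their gene. Among the 26, 10 were called higher in *Eeyore* mice (12.2% of all tested probe sets were) and 5 in *Winnie* mice (9.75% of all were). None was called lower in either strain, against 17.1% of all tested probe sets in *Eeyore* and 11.7% in *Winnie* mice, and none differed between the strains, where 1.07% of all were higher and 1.24% lower in *Eeyore*. The 1 other probe set of *Stard4* called higher in *Eeyore* mice belongs to a gene whose brightest probe set was at -0.11. A dim second probe set of *Msmo1* gave -0.75 in *Eeyore* and -0.78 in *Winnie* mice and did not pass (adjusted p = 0.147 and 0.149). Averaged over both, *Msmo1* gave 0.15 in *Eeyore* and 0.07 in *Winnie* mice and neither call was kept (adjusted p = 0.538 and 0.809). Averaging likewise ended, among others, the calls of *Lss* in *Eeyore* (0.65, adjusted p = 0.326) and of *Cyp51* in *Winnie* mice (0.34, adjusted p = 0.13). The brightest probe sets of *Fdft1*, *Hsd17b7*, *Lss* and *Mvd* are of types whose probes can match other transcripts, so their values are less certain.

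**Figure D4:**
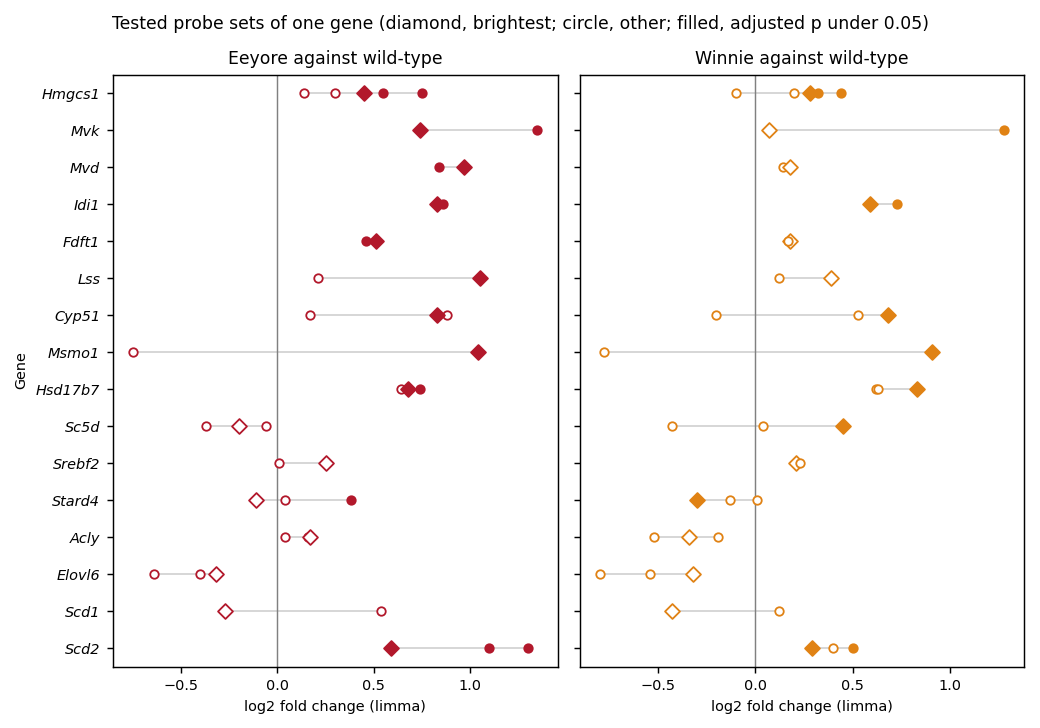
Each row is 1 of the 16 genes with more than 1 tested probe set, each point the limma log2 fold change against wild-type of 1 probe set in *Eeyore* (left) and *Winnie* mice (right), a diamond for the brightest and filled where the adjusted p is under 0.05. All filled points lie right of 0 except the *Winnie* diamond of *Stard4*, and the probe sets of *Msmo1* and *Scd2* are spread widely.

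In a wider list of 56 genes of the same pathways 44 were tested. In *Eeyore* mice 9 of the 44 rose and 5 fell, where 14.0% and 16.6% of all tested genes did, and the median log2 fold change was 0. In *Winnie* mice 9 rose and 4 fell, where 11.3% and 12.0% of all tested genes did, and the median was -0.07. *Mid1ip1*, which helps acetyl-CoA carboxylase to polymerise, gave 5510.0, 5916 and 6229 in *Eeyore*, 3934, 4714 and 4188.5 in *Winnie*, and 3038.5, 3123 and 2653 in wild-type mice, and rose by 1.00 in *Eeyore* (adjusted p = 7.39e-05) and 0.54 in *Winnie* mice (adjusted p = 0.0044). *Thrsp*, a lipogenic protein abundant in fat tissue, gave 3.16, 232 and 214.5 in *Eeyore*, 507, 152 and 238.5 in *Winnie*, and 1399, 1323 and 1084 in wild-type mice, and fell in *Eeyore* mice (adjusted p = 0.0164). The ratio of its mean signals was 0.118, and no fitted size is given because *Eeyore* mouse 1 lay among the dimmest signals. *Mlxipl*, a carbohydrate-responsive factor of lipogenesis, fell there as well (adjusted p = 0.0347), with a ratio of mean signals of 0.394 and *Eeyore* mouse 3 at 38.9. *Agpat2*, an acyltransferase of glycerolipid synthesis, rose in *Eeyore* mice by 0.81 (adjusted p = 0.00789). In *Winnie* mice the 4 largest called changes were in *Oxsm* of mitochondrial fatty acid synthesis (0.79, adjusted p = 0.00794), the acyl-CoA synthetase *Acsl5* (0.69, adjusted p = 0.00631), the acetyl-CoA synthetase *Acss2* (-0.65, adjusted p = 0.0117) and *Mlx*, the partner of Mlxipl (0.64, adjusted p = 0.00627). *Acsl5*, *Acss2* and *Mlx* were called in the same direction in *Eeyore* mice (0.56, -0.53 and 0.80, adjusted p = 0.0121, 0.0235 and 0.00121), and *Oxsm* was not called there (0.04, adjusted p = 0.887). Between the strains *Oxsm* was lower in *Eeyore* (-0.75, adjusted p = 0.0437) and *Mid1ip1* higher (0.46, adjusted p = 0.0428).

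The make-up of the tissue moved with these results, and in whole tissue fewer cells of a type and less RNA per cell cannot be told apart. The summed signal of 8 epithelial markers was 200620.0 to 217451 in *Eeyore*, 184791 to 193610.0 in *Winnie* and 159421 to 166205 in wild-type mice, and 5 and 3 of the 8 rose in *Eeyore* and *Winnie* mice. All 8 smooth muscle markers fell in both strains, with sums of 51989 to 57510.0 in *Eeyore*, 63783 to 69433 in *Winnie* and 135380.0 to 140723 in wild-type mice. Adipocyte markers summed to 650.0 to 2034 in *Eeyore*, 2600.0 to 6699 in *Winnie* and 9114 to 11218 in wild-type mice, and 3 of the 5 tested fell in each strain. Of 7 markers of dividing cells 5 rose in *Eeyore* and 7 in *Winnie* mice, at 15720.0 to 17964 and 16144 to 21543 against 10612 to 11294 in wild-type mice. Macrophage and monocyte markers summed to 9756 to 20531 in *Eeyore*, 10457 to 13302 in *Winnie* and 8567 to 9020.0 in wild-type mice, and 3 of 8 rose in *Eeyore* and 2 of 8 in *Winnie* mice. Goblet cell markers summed to 287351 to 322294 in *Eeyore*, 217931 to 267812 in *Winnie* and 321982 to 354840.0 in wild-type mice, and in each strain 3 of 8 fell, *Muc2* among them, and 1 rose. Squamous and sebaceous markers summed to 271 to 822 in *Eeyore*, 429 to 2578 in *Winnie* and 1457 to 2835 in wild-type mice, and of the 3 tested 3 fell in *Eeyore* and 0 passed in *Winnie* mice. Of 8 markers of absorptive colonocytes 2 rose and 1 fell in *Eeyore* and 2 rose in *Winnie* mice, and of 5 tested T and B cell markers 0 passed in *Eeyore* and 1 fell in *Winnie* mice. No marker of these lists was at 0 in any mouse. With every array centred on the 8 epithelial markers, a scaling chosen once the values were known, 11 of the 28 lipid genes were called higher and 5 lower in *Eeyore* mice (4.97% and 33.2% of all tested genes were). In *Winnie* mice 4 were higher (*Fdps*, *Sqle*, *Cyp51* and *Msmo1*) and 3 lower (5.24% and 21.4% of all tested genes). The part of the other cell types in the results was not tested.

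The scaling of the arrays also bears on the counts. Median signals per array were 95.8 to 99.5 in *Eeyore* and 88.1 to 95.4 in *Winnie* mice, against 119 to 129 in wild-type mice, so that centring on the median moves all mutant signals upwards. The median log2 fold change over all tested probe sets was then 0.24 in *Eeyore* and 0.32 in *Winnie* mice, against -0.09 in both with the deposited scaling, and 22 of the 28 genes were called higher in *Eeyore* and 17 in *Winnie* mice, where 32.4% and 37.1% of all tested genes were. None was called lower (7.77% and 3.97% of all tested genes were). With quantile normalization 17 were higher and 0 lower in *Eeyore* mice (15.1% and 14.1% of all tested genes), and 8 higher and 3 lower in *Winnie* mice (11.7% and 10.1%). An exact two-sided permutation test of 3 against 3 mice cannot give a p under 0.10, so only p-values from limma are printed.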

How the data were processed

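The authors deposited 1 linear signal intensity per probe set for each of 9 Affymetrix arrays, scaled per array to a mean of 500 after trimming 2% at each end. The signal algorithm and detection calls are not given in the sources used here. Intensities were put on the log2 scale unchanged, and the precision is limited by 3 arrays per group. Tests covered the brighter probe sets, 22519 of 45037 without controls, whose mean over the arrays reached the 50th percentile (a signal of 85.9). All 9 arrays entered 1 model in limma 3.58.1 (R 4.3.3), in which lmFit was followed by eBayes with a trend on intensity, and 3 contrasts were taken from it with Benjamini-Hochberg adjustment over the tested probe sets and a threshold of 0.05. The fit was tested on simulated data. No source says that the mice came from separate litters or cages, so p-values measure the spread between these mice.

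Gene symbols came from the platform annotation and were updated by gene identifier, which left 34945 probe sets with 1 symbol, 932 with several and 9160.0 with none. A gene was read from its brightest probe set with that symbol alone. All members are accounted for. Genes of the wider list are named where they had 1 of the 4 largest called changes in a strain. Members and lists were chosen with earlier results of these data known. Promoter windows are from RefSeq (GRCm38.p6).

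Alternatives were quantile normalization, median centring, centring on epithelial markers, testing unfiltered probe sets or those above the 75th percentile, an offset of 32 before the log2, eBayes without the trend or in its robust form, fits on the compared groups alone, a replicate block, leaving out each mouse, the mean over a gene's probe sets, and an added 2-fold rule on mean signals. Tables and plots were made in Python 3.11.15 (matplotlib 3.10.9).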

Additional observations from a re-analysis of the deposited data

Results flagged for a closer look

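For 5 genes the effect differed between the 2 mutant strains by limma's test of the difference itself (n = 3 mice each). The log2 difference of *Eeyore* over *Winnie* was 0.99 for *Insig1* (adjusted p = 0.00241), 0.96 for *Nsdhl* (adjusted p = 0.00389), 0.64 for *Fdps* (adjusted p = 0.027), 0.51 for *Acly* (adjusted p = 0.045) and -0.65 for *Sc5d* (adjusted p = 0.0172). In *Fdps* both strains were above wild-type and *Eeyore* was the higher of the 2. In *Insig1* and *Nsdhl* *Eeyore* alone was called against wild-type, in *Sc5d* *Winnie* alone, and in *Acly* neither strain. The *Sc5d* values are those of its brightest probe set, and a dimmer probe set went the other way without passing. *Eeyore* mice are of a mixed background, so that in these differences the background and the allele cannot be told apart.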

How the results depend on the processing

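The direction of every call on a single gene was kept in the 20 settings that test single genes except for *Stard4* in *Winnie* mice, which with median centring was 0.11, and *Fasn*, not called with the deposited scaling, was called higher there in *Winnie* mice at 0.32. Calls kept in all 20 settings were 8 of 16 in *Eeyore* (*Pmvk*, *Mvd*, *Idi1*, *Sqle*, *Cyp51*, *Nsdhl*, *Insig1* and *Scd2*), 1 of 11 in *Winnie* (*Sqle*) and 2 of 5 between the strains (*Nsdhl* and *Insig1*). In *Winnie* mice the calls of *Fdps*, *Cyp51* and *Msmo1* were lost only with the mean over a gene's probe sets. In *Eeyore* mice this held for *Fdps*, *Lss* and *Msmo1*. That mean also takes in probe sets too dim to be tested. Members called higher in *Eeyore* mice numbered 16, but 4 with the 2-fold rule, and 14 to 16 with a mouse left out. The mean over a gene's probe sets ended the *Eeyore* calls of *Fdps*, *Fdft1*, *Lss*, *Msmo1* and *Hsd17b7*. Members called lower in *Eeyore* numbered 0 in limma's test, and 5 when centred on epithelial markers. Members called higher in *Winnie* mice numbered 10, but 17 with median centring, 3 with the mean over a gene's probe sets (gene means), 4 when centred on epithelial markers, 0 with the 2-fold rule and 5 to 10 with a mouse left out (5 without *Winnie* mouse 2 or wild-type mouse 2, 6 without wild-type mouse 1). Members called lower in *Winnie* numbered 1, but 3 with quantile normalization or centred on epithelial markers, 2 with the 75th percentile filter or the replicate block, 0 with median centring, unfiltered, without the trend, with gene means or the 2-fold rule, and 0 to 1 with a mouse left out. Members higher in *Eeyore* than in *Winnie* numbered 4, but 7 with the 75th percentile filter, 2 with median centring, without the trend, with gene means or centred on epithelial markers, 1 with the 2-fold rule, and 2 to 6 with a mouse left out (2 without *Eeyore* mouse 2 or 3 or *Winnie* mouse 1 or 3). Members lower in *Eeyore* than in *Winnie* numbered 1, but 0 with without the trend, with gene means or the 2-fold rule, and 0 to 1 with a mouse left out. The 2-fold rule adds a criterion and leaving out a mouse removes a sample, while the causes of the other shifts were not tested. Shares of all tested genes were counted for the deposited scaling and, against wild-type, for quantile normalization, median centring and epithelial centring. The member counts under the other settings have no such share beside them. The split of all called probe sets was 2747 higher and 3842 lower in *Eeyore* and 2195 higher and 2639 lower in *Winnie* mice, but 6350.0 and 1877, and 7234 and 853, with median centring. Mouse numbers are not a stated pairing. Over 9 pairs with the same number correlations of deviations ran from -0.00821 to 0.164, 1 of them above 0.1. Between *Winnie* and wild-type mice the same-number pairs gave 0.0677, 0.0849 and 0.164, above all pairs of unlike number (-0.0952 to 0.0199). Whether these groups share an order by number was not tested. With the replicate block 16 and 10 members were higher in *Eeyore* and *Winnie* mice and 5 were higher in *Eeyore* than in *Winnie*.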
